A study of Saccharomyces cerevisiae with 1 sample.

Results

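The yeast snoRNAs SNR72, SNR73, SNR74, SNR75, SNR76, SNR77 and SNR78 are encoded side by side and are made from 1 polycistronic transcript. They were picked by name from the deposited table of control hits on snoRNAs, where all 7 are present among 67 RNAs. The data come from 1 CRAC library (UV cross-linking followed by sequencing of the recovered RNA fragments as cDNA) of BY4742, a laboratory strain of Saccharomyces cerevisiae. The strain carried no tagged protein. Its hits are therefore the fragments that come through both purification steps without a bait. Cells were grown in minimal medium with glucose and without tryptophan to an OD of 0.6, and the library went through 16 cycles of PCR. No replicate of this library was analysed here, so no value carries an error or a p-value, and the order of members with close values cannot be judged. Fragments bound to HTP-Dbp6 were not analysed here.

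Box C/D snoRNAs are short nucleolar RNAs named for their conserved box motifs. Together with Nop1, Nop56, Nop58 and Snu13 they form particles that methylate the ribose of a nucleotide in rRNA, and the snoRNA finds this nucleotide by base-pairing. Yeast makes most of its snoRNAs from genes of their own, some from introns, and some in series from 1 precursor. In a polycistronic precursor the endonuclease Rnt1 cuts the spacers between the snoRNAs, and exonucleases then trim the ends to those of the mature RNAs. The RNAs of such a cluster therefore start out on the same molecule, 1 copy of each. Of the 7 RNAs, SNR74 and SNR77 guide methylation of the 18S rRNA. The other members guide methylation of the 25S rRNA, with targets in domain II for SNR72, domain IV for SNR75 and SNR76, and domain V for SNR73 and SNR78.

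In RefSeq's R64 assembly, the build that the submitters' processing notes also name, the cluster lies on the forward strand of chromosome XIII from 297278 to 298651, a span of 1374 nucleotides. Transcription runs through SNR78, SNR77, SNR76, SNR75, SNR74, SNR73 and SNR72 in this order. The annotated RNAs are alike in size, with a length of 87 nucleotides for SNR78, 88 for SNR77 and SNR74, 89 for SNR75, 98 for SNR72, 106 for SNR73 and 109 for SNR76. Together they fill 665 nucleotides, or 48.4% of the span. The spacers between them measure 81 to 141 nucleotides, and no other annotated gene lies within the cluster. The nearest genes are SEC59 on the opposite strand, 539 nucleotides before SNR78, and BUD22 on the same strand, 216 nucleotides after SNR72.

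The hits on these 7 RNAs were far from equal. SNR75 had 2433 hits per 1000000 reads (RPM), more than the rest of the cluster combined. It was followed by SNR78 with 530 RPM and SNR77 with 491 RPM, the first pair of RNAs on the precursor. SNR76, which follows them, had 309 RPM. The last 3 RNAs of the precursor had the fewest hits, with 233 RPM for SNR72, 181 RPM for SNR73 and 132 RPM for SNR74. An equal division of the cluster's 4309 RPM would have given each RNA 616 RPM, and only SNR75 exceeded this value.

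**Figure D1:**
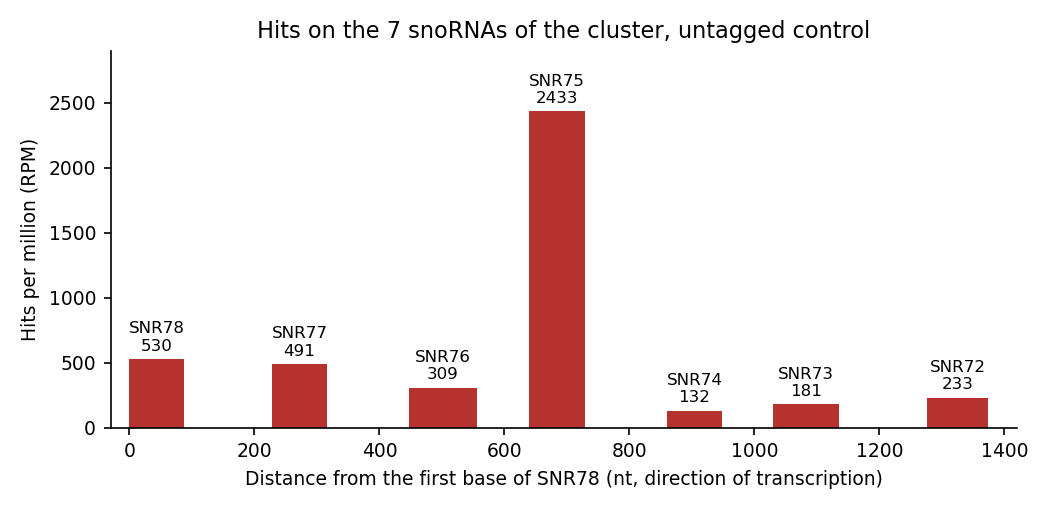
Hits per 1000000 reads (RPM, y axis) on each snoRNA of the cluster in the untagged control, plotted against the distance in nucleotides from the first base of SNR78 along the direction of transcription (x axis). Each bar is as wide as the annotated RNA and the gaps are the spacers. SNR75 in the middle reaches 2433 RPM, and its neighbours SNR76 and SNR74 reach 309 and 132 RPM.

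SNR75 took 56.5% of the hits of the cluster. SNR78 took 12.3%, SNR77 11.4%, SNR76 7.17%, SNR72 5.41%, SNR73 4.20% and SNR74 3.06%, where an equal part would be 14.3%. Dividing hits by annotated length left this picture in place. The division adjusts for the size of each RNA only. A level per nucleotide here means hits per nucleotide, not the abundance of the RNA in the cells. SNR75 had 27.3 RPM per nucleotide, SNR78 had 6.09 and SNR77 had 5.58, and the other members lay between 1.5 for SNR74 and 2.83 for SNR76. The level per nucleotide was thus 18.2 times as high for SNR75 as for SNR74, and 4.49 times as high for SNR75 as for SNR78. The corresponding ratios of RPM values were 18.4 and 4.59.

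SNR75 and SNR74 are direct neighbours, separated by 131 nucleotides, and differ by 1 nucleotide in length. They nevertheless formed the most unequal of all 21 pairs of members. On the other side, 84 nucleotides before SNR75, the level per nucleotide of SNR76 was lower than that of SNR75 by a factor of 9.64. The remaining neighbours were closer to each other. The higher level per nucleotide was 1.09 times the lower for SNR78 and SNR77, 1.97 times for SNR77 and SNR76, 1.14 times for SNR74 and SNR73, and 1.39 times for SNR73 and SNR72. A jump of more than 2-fold between neighbours was therefore seen only at both borders of SNR75.

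Much of the inequality came from this 1 RNA. Without SNR75, the remaining 6 members had between 132 and 530 RPM, a 4.02-fold range (4.06-fold per nucleotide). The effective number of members, which equals the number of RNAs when all have the same hits and approaches 1 when a single RNA has them all, was 2.80 of 7 for the whole cluster and 4.87 of 6 without SNR75. Over the 21 pairs of members, the higher RPM value was a median of 2.34 times the lower, and 13 pairs (61.9%) differed by at least 2-fold. All 6 pairs with SNR75 were among these, and the other 15 pairs had a median of 1.77-fold. Pairs share members, so these counts are not independent.

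For comparison, the 2145 pairs among all RNAs of the table that had hits gave a median of 3.22-fold, and 68.8% of them differed by at least 2-fold. Among the 39 box C/D snoRNAs outside the cluster, the median over pairs was 3.16-fold and 69.0% differed by at least 2-fold. Among the 23 box C/D snoRNAs outside both arrays and protein-coding genes, these values were 2.80-fold and 64.5%. In RPM, the share of pairs at least 2-fold apart in the cluster was thus near that of these 23 snoRNAs. Without SNR75 the share in the cluster was lower, at 46.7%. It had to fall, since every pair with SNR75, the highest member, differed by at least 2-fold. The sets compared keep their highest RNAs, so 46.7% cannot be set beside their shares. Per nucleotide, the share was 61.9% in the cluster, 73.2% among the 23 snoRNAs and 71.4% among the 39. Both of these sets include SNR17A and SNR17B, whose annotated lengths include an intron, which lowers their level per nucleotide. SNR17B was the lowest per nucleotide in both sets. Per nucleotide, the medians over pairs were 2.56-fold in the cluster and 3.41-fold among the 39 box C/D snoRNAs outside it. No test was made of these differences.

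In the ranking of all 67 RNAs by RPM, the members were spread from rank 3 to rank 45. SNR75 was at rank 3, between SNR61 (2690 RPM) and SNR41 (2160 RPM), both of which come from other polycistronic precursors. No other member was near it, and 11 RNAs lay between SNR75 and SNR78. SNR78 at rank 15 lay between SNR56 (554 RPM) and SNR48 (527 RPM), guides of 18S and 25S rRNA methylation. SNR77 at rank 17 lay between SNR48 and SNR63 (484 RPM). SNR76 at rank 27 was close to SNR45 (313 RPM) and SNR39 (307 RPM).

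The lower members lay around the middle of the table. SNR72 at rank 33 stood next to SNR67 (234 RPM) and SNR32 (219 RPM), a box H/ACA snoRNA that holds the median of the table. SNR73 at rank 36 stood between SNR65 (188 RPM) and SNR10 (172 RPM). SNR74 shared rank 45 and its 132 RPM with SNR11, between SNR5 (133 RPM) and SNR68 (122 RPM). The table runs from SNR128 with 3923 RPM at the top to SNR64, which is listed at 0.

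**Figure D2:**
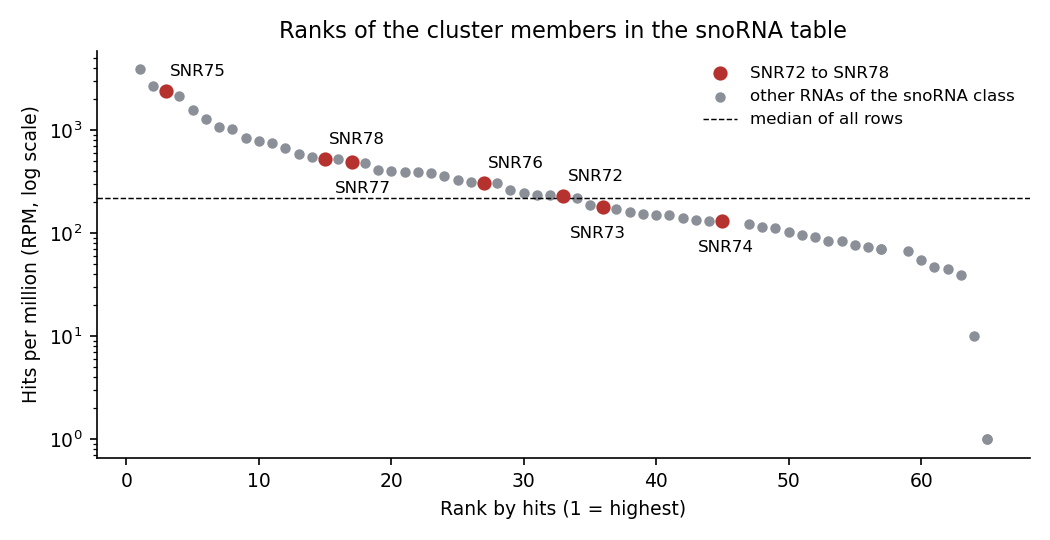
RPM on a log scale (y axis) against rank by hits (x axis) for the RNAs of the snoRNA table, with the members of the cluster in red and the other RNAs in grey; SNR64, listed at 0, is not drawn. The dashed line is the median of 219 RPM; 5 members lie above it, SNR73 and SNR74 lie below, and SNR75 is at rank 3.

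In RPM, 5 of the 7 members were above the median of the table, SNR75 by 11.1-fold and SNR72 by 1.06-fold. Box H/ACA snoRNAs, which guide pseudouridylation, lower this median, since the 20 of them had a median of 114 RPM against 311 RPM for the 46 box C/D snoRNAs. Relative to the box C/D median, only SNR75, SNR78 and SNR77 were higher. SNR76 lay just under it at 0.994-fold, SNR72 had 0.749-fold, SNR73 0.582-fold and SNR74 0.424-fold. Per nucleotide, 6 of the 7 members, all but SNR74, were above the median of all RNAs, which was 1.60 RPM per nucleotide. Of the box H/ACA snoRNAs 1 of 20 was above it, and of the box C/D snoRNAs 32 of 46. Against the box C/D median of 2.70 RPM per nucleotide, 4 members were higher, namely SNR75, SNR78, SNR77 and SNR76.

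The cluster as a whole received 4309 of the 30680 RPM on the snoRNA class, or 14.0%, while its members make up 10.4% of the RNAs listed. SNR75 alone held 7.93% of the snoRNA hits. The other 6 members held 6.11% of the hits and make up 8.96% of the RNAs. Among box C/D snoRNAs, the share of the cluster was 15.8% of the hits, with 7 of the 46 RNAs. The mean was 616 RPM per member and 593 RPM per box C/D snoRNA, so within this class the cluster was near an even share. Box H/ACA snoRNAs make up 29.9% of the RNAs listed and had 10.3% of the hits. Of all hits in the library, the cluster had 0.431%, and it had 1.45% of those in the deposited classes other than rRNA. The summed value of the cluster was close to that of SNR190 and SNR128 together (4251 RPM), an array of 2 members.

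Divided by target, the 5 guides of the 25S rRNA (SNR72, SNR73, SNR75, SNR76 and SNR78) had 3686 RPM in sum. Their median was 309 RPM and their mean, which includes SNR75, was 737.2 RPM. Both guides of the 18S rRNA (SNR74 and SNR77) had 623 RPM in sum and a mean of 311.5 RPM. Each kind included an RNA from the upper and one from the lower part of the ranking. Both guides with targets in domain IV of the 25S rRNA, SNR75 and SNR76, were 7.87-fold apart in RPM (9.64-fold per nucleotide), and those of domain V, SNR78 and SNR73, were 2.93-fold apart (3.57-fold per nucleotide).

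The RefSeq annotation holds 4 other places at which snoRNA genes follow each other on 1 strand with less than 500 nucleotides between them. These are the arrays of SNR190 and SNR128, of SNR57, SNR55 and SNR61, of SNR41, SNR70 and SNR51, and of SNR67 and SNR53. In 3 of these 4 arrays 1 RNA dominated, as SNR75 did in the SNR72 to SNR78 cluster. SNR128, the U14 snoRNA required for processing of the 18S rRNA, had 3923 RPM, or 31.1 per nucleotide, and its partner SNR190 had 328 RPM, or 1.73 per nucleotide. SNR61 had 29.9 RPM per nucleotide, against 1.85 for SNR57 and 1.45 for SNR55. SNR41 had 22.7 RPM per nucleotide, against 5.57 for SNR51 and 0.470 for SNR70.

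The highest level per nucleotide within an array was 18.2 times the lowest in the SNR72 to SNR78 cluster, 18.04 times in SNR190-SNR128, 20.6 times in SNR57-SNR55-SNR61 and 48.4 times in SNR41-SNR70-SNR51. SNR67 and SNR53 were the exception, with 2.85 and 2.89 RPM per nucleotide. The dominant RNA took 57.6% of the summed level per nucleotide in the SNR72 to SNR78 cluster, 94.7% in SNR190-SNR128, 90.1% in SNR57-SNR55-SNR61 and 79.0% in SNR41-SNR70-SNR51. These shares and ratios depend on the number of members in each array. Over pairs of members, the median fold per nucleotide was 2.56 in the SNR72 to SNR78 cluster. It was 18.04 in SNR190-SNR128 (1 pair), 16.1 in SNR57-SNR55-SNR61, 11.9 in SNR41-SNR70-SNR51 and 1.01 in SNR67-SNR53 (1 pair). A single high RNA was also seen among snoRNAs that share no precursor. SNR75 took 56.5% of the RPM of its cluster, and SNR38, encoded within TEF4, took 57.2% of the RPM on the 6 box C/D snoRNAs that lie inside protein-coding genes. The highest of these 6 had 28.9 times the RPM of the lowest, and their effective number was 2.63 of 6. In the larger set of 23 box C/D snoRNAs outside both arrays and protein-coding genes, the highest took 15.7% of the RPM. The effective number there was 12.8 of 23.

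The 4 highest RNAs of the whole table, SNR128, SNR61, SNR75 and SNR41, thus each came from a different polycistronic array, both by RPM and per nucleotide. They accounted for 36.5% of all snoRNA hits. RNAs of the 5 arrays make up 25.4% of the RNAs listed. All of them are box C/D snoRNAs, as are the 4 highest RNAs, and they make up 17 of the 46 RNAs of that class. The next RNA, SNR52 at rank 5, lies outside arrays, so the count of 4 rests on where the ranking was cut. The other 13 RNAs of arrays had a median of 234 RPM. All 17 RNAs of the 5 arrays had a median of 309 RPM, close to the median of 313 RPM for the 29 box C/D snoRNAs outside arrays, whose maximum was 1590 RPM (SNR52). The dominant RNA had no fixed place. SNR75 is the fourth of 7 RNAs on its precursor, SNR128 and SNR61 are the last, and SNR41 is the first.

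**Figure D3:**
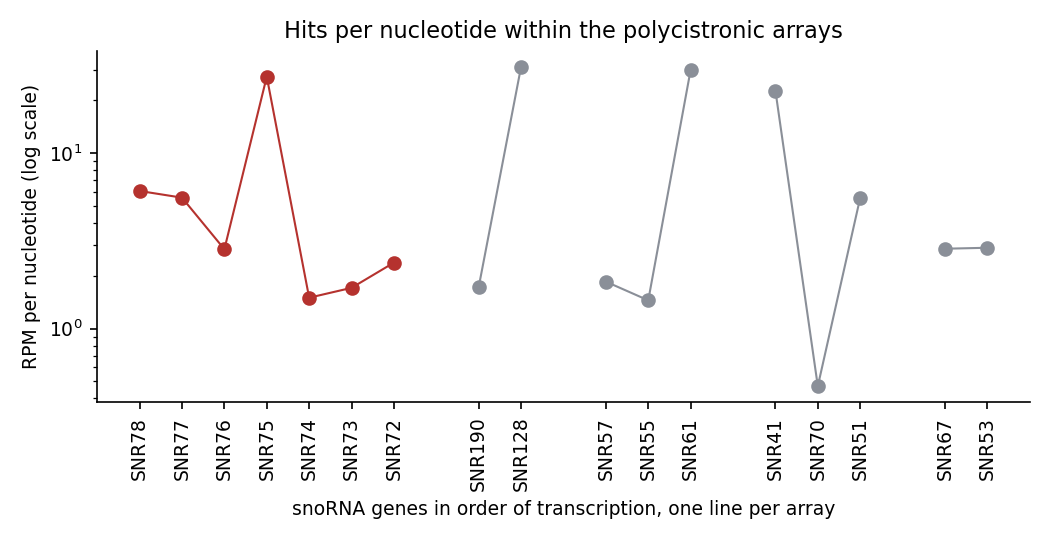
RPM per nucleotide of annotated length on a log scale (y axis) for the RNAs of the 5 polycistronic arrays, in order of transcription from left to right within each array (x axis). The SNR72 to SNR78 cluster is in red and the other arrays are in grey; lines join RNAs of 1 array. SNR75, SNR128, SNR61 and SNR41 stand at 22.7 to 31.1 RPM per nucleotide, and SNR67 and SNR53 are level at 2.85 and 2.89.

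Along the precursor, the 3 RNAs before SNR75 had 1330 RPM together and the 3 after it had 546 RPM, a ratio of 2.44. Each of SNR78, SNR77 and SNR76 had more hits than any of SNR74, SNR73 and SNR72. Within the last 3, however, the order was reversed, and SNR72 at the end of the precursor had the most. Without SNR75, Spearman's rho between place and RPM was -0.771 over the 6 remaining RNAs, which share 1 library and 1 precursor. With SNR75 it was -0.643 over 7 RNAs. Both are given as descriptions.

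Annotated length did not order the members. Among the 4 members of 87 to 89 nucleotides were the highest 3 and the lowest, with 2433 RPM for SNR75, 530 for SNR78, 491 for SNR77 and 132 for SNR74. The longest members, SNR76 and SNR73, lay between these values. Spearman's rho between length and RPM was -0.288 over the 7 members and -0.045 over the 39 other box C/D snoRNAs, all from the same library. How abundant each snoRNA was in the cells and how readily its fragments passed through the purification cannot be told apart in this library. Hits on the spacers of the precursor were not analysed here.

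**Figure D4:**
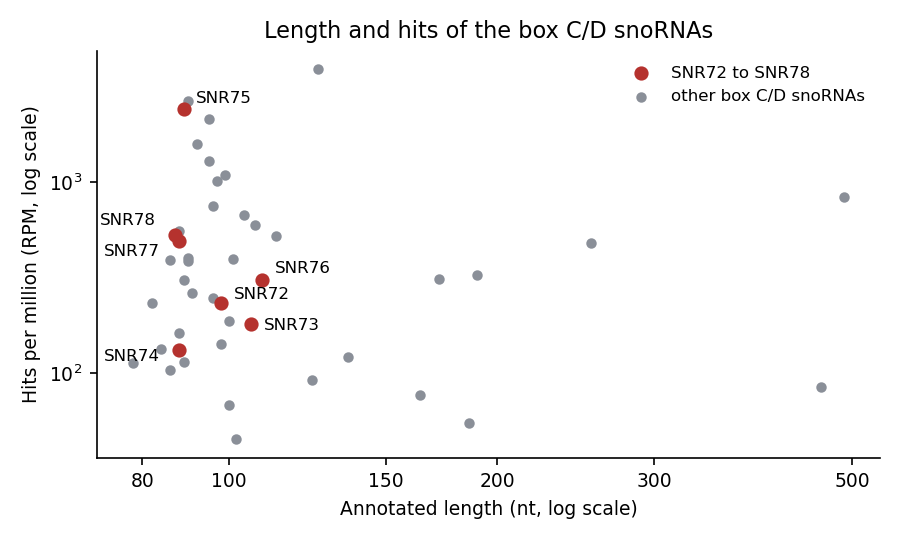
RPM (y axis, log scale) against annotated length in nucleotides (x axis, log scale) for box C/D snoRNAs, with the 7 members of the cluster in red and other box C/D snoRNAs in grey; SNR64, listed at 0, is not drawn. Members of 87 to 89 nucleotides span the whole range of the cluster, 132 to 2433 RPM.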

How the data were processed

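The methods name Flexbar for trimming and filtering, Novoalign for mapping and pyCRAC for counting. The submitters' notes name the R64 genome. The authors deposited hits per snoRNA and per RNA class in reads per 1000000 (RPM), as whole numbers. The 67 snoRNA values sum to the class total of 30680, and the 6 classes sum to 1000000. The counter's option named in the methods leaves unclear if values were rescaled or taken from a capped number of reads. The depth is thus unknown, and counting intervals are not given. Hits from PCR-amplified reads are not independent molecules.

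From these values, shares, ranks, ratios, pairwise folds and the effective number (inverse of the summed squared shares) were computed with Python 3.11.15 and numpy 2.4.6, and drawn with matplotlib 3.10.9. The functions were tested on simulated data. All 67 names matched a symbol in RefSeq's R64 gene table, which gave positions and lengths. Annotated lengths of SNR17A and SNR17B include an intron. NME1 in the table is the RNA of RNase MRP. Pairwise folds leave out SNR64, listed at 0. Members, lists and alternatives were chosen with earlier results of these data known. The text names the members, the RNAs of other arrays, the rank neighbours of each member and the ends of the table; SNR52 and SNR38 were added after their values were seen. The alternatives covered the RNAs in the total, annotated length, 100 RPM added and leaving out SNR75. The pileup of the 25S rRNA was not used here, since the target nucleotides of the guides could not be located without snoRNA sequences.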

Additional observations from a re-analysis of the deposited data

How the results depend on the processing

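A share or ratio was taken as unchanged if its first 3 significant digits were, and a count if it stayed within 1.5 times. The share of the cluster in snoRNA hits, 14.0%, was 14.2% without NME1 in the total, 15.8% over box C/D snoRNAs only, 16.1% without SNR128, the highest RNA outside the cluster, 17.1% of the summed RPM per nucleotide, 6.64% with SNR75 left out of both sums, and 0.431% of all 6 RNA classes. The highest over the lowest member, 18.4-fold in RPM, was 18.2-fold per nucleotide, 10.9-fold after adding 100 RPM to each RNA, and 4.02-fold without SNR75. The effective number of members, 2.80, was 2.70 per nucleotide, 3.31 with 100 RPM added and 4.87 without SNR75. The median fold over pairs of members, 2.34, was 2.56 per nucleotide, 1.89 with 100 RPM added and 1.77 without SNR75. Adding a constant lowers every ratio by construction. Leaving out SNR75, the highest member, likewise had to lower the share of the cluster and its highest over lowest. Of the 5 members above the median of the table, 3 were above that of box C/D snoRNAs only; the number was 5 without NME1 and 6 per nucleotide. Per nucleotide, SNR75 was again at rank 3 and the other 6 members moved up, by at most 10 places. Ranking box C/D snoRNAs only cannot lower a member, since it only removes RNAs, and SNR75 stays at rank 3 because both RNAs above it are box C/D snoRNAs. The hits at the 25S target nucleotides of the guides and both their alternatives were not run, since the target positions could not be located. No paired analysis was possible because only 1 library was analysed, and leaving out a replicate was likewise not possible. Without a known depth, close RPM values such as those of SNR78 and SNR77 cannot be ordered.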
